A study of Homo sapiens with 6 samples.

Results

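Antisense long non-coding RNAs (lncRNAs) are transcripts made from the DNA strand opposite to another gene, usually a protein-coding one, and are named after it with the suffix -AS1, -AS2 or -AS3. The members described here are the genes with such a symbol selected on their mean level over the 6 libraries, at least 0.5 CPM (gene counts scaled to a common library total), leaving out EPB41L4A-AS1 and OIP5-AS1. They number 390 of the 1814 genes with such a symbol in the tables and of 62696 genes in all. A further 1422 lay under the threshold, 535 of them with no count in any library. Just inside it were VLDLR-AS1 at 0.501 CPM and CAVIN2-AS1 at 0.503 CPM, and just outside were TDRKH-AS1 and ACVR2B-AS1, both at 0.495 CPM.

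Total RNA was sequenced from the human endometriotic epithelial line 12Z, taken 72 h after cells received 1 siRNA against the intergenic lncRNA LINC01638 (3 libraries, A to C) or a control siRNA (3 libraries, A to C). Ribosomal RNA was depleted and the libraries keep the strand of each RNA, so a gene and its antisense partner are counted apart. The gene counts came to between 45617234 and 58148664 per library. The labels do not say that the replicates were separate cultures, so the p-values reflect spread among libraries that may be only technical. One siRNA was used against the target, and effects of its sequence on other RNAs cannot be told apart from those of losing LINC01638.

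Antisense lncRNAs can start near the promoter of their sense gene and be transcribed away from it or across it, or they can start elsewhere and run through the gene body or its end. Some are known to act on the sense gene, for example by recruiting chromatin modifiers, by masking splice sites in the paired RNA, or through the act of transcription itself. For most of them no function is known, and a shared promoter region alone can make both RNAs vary together.

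LINC01638 had 2.29, 1.98 and 2.05 CPM with LINC01638 siRNA, against 7.64, 7.65 and 7.81 CPM with control siRNA (log2 fold change -1.87, SE 0.11, adjusted p = 3.73e-11). All levels from here on are CPM after TMM scaling (trimmed mean of M-values), and all adjusted p-values are from edgeR's quasi-likelihood test over the 18569 genes tested unless stated. Of the epithelial markers, KRT8 averaged 1813 CPM with LINC01638 siRNA and 2604 CPM with control siRNA, EPCAM averaged 1.38 CPM with LINC01638 siRNA and 0.377 CPM with control siRNA, and CDH1 averaged 3.58 CPM with LINC01638 siRNA and 8.14 CPM with control siRNA. The 4 stromal markers were also present, between 34.9 and 979 CPM with LINC01638 siRNA and between 54.2 and 2314 CPM with control siRNA. The endothelial markers were at most 1.78 CPM with LINC01638 siRNA and at most 1.05 CPM with control siRNA. The T-cell marker CD3E had no count in any library, while the monocyte marker CD14 averaged 34.6 CPM with LINC01638 siRNA and 48.9 CPM with control siRNA. The remaining immune marker, PTPRC, averaged only 0.239 CPM with LINC01638 siRNA and 0.319 CPM with control siRNA. In bulk RNA, fewer cells of a type and less RNA per cell cannot be told apart. Reads outside annotated exons made up 13.2% ± 1.67 of mapped reads with LINC01638 siRNA and 9.18% ± 0.864 with control siRNA (SD, n = 3 each); the part of these reads and of the markers in the changes below was not tested.

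The antisense lncRNAs were rare transcripts. Together they held 0.135% ± 0.00132 of gene counts with LINC01638 siRNA and 0.132% ± 0.00169 with control siRNA (SD, n = 3 each). Their median level was 1.64 CPM, 231 lay under 2 CPM, and 29 reached at least 10 CPM, with FGD5-AS1 the highest at 78.5 CPM over the 6 libraries. A sense gene of the same name was found for 381 of them, which is 376 different genes, 375 of these protein-coding. The 9 others were HOXA-AS2, HOXA-AS3, HOXB-AS1, HOXB-AS3 and HOXD-AS2, which are named after whole gene clusters, and ZBED9-AS1, KRTAP5-AS1, MYL12-AS1 and ZNF295-AS1. Per kilobase of exon, the antisense RNA was below its sense gene in every library in 295 of 378 pairs and above it in every library in 71. The median pair had an antisense level per kilobase that was 11.4% of the sense level with LINC01638 siRNA and 10.7% with control siRNA.

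By GENCODE 29 positions, 189 of the 378 placed members overlapped the start of the sense gene, 77 its end, 56 lay inside it, 31 spanned it, and 22 started on the other strand within 5 kb of its start without overlap. FAM131B-AS2 is annotated on the same strand as FAM131B. Exons of the antisense and sense genes overlapped in 291 pairs, by a median of 302 bp and by up to 11381 bp in TTN-AS1, which runs opposite to the gene of the muscle protein titin. The annotated starts lay within 1 kb of each other in 137 pairs. By GENCODE 29 type, 2 members are protein-coding genes and 2 are transcribed unitary pseudogenes. Another 1 is a transcribed processed pseudogene, 1 is a transcribed unprocessed pseudogene, and 3 members are not in that release. The term antisense lncRNA is used here for all members, by their symbol.

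After LINC01638 siRNA, 72 of the 390 antisense lncRNAs rose, 84 fell and 234 did not pass the test, so 156 passed. Over all genes tested, 56.0% passed, with 26.3% higher and 29.6% lower. Among members between 0.5 and 2 CPM, 36 rose and 40 fell of 231 (32.9%), beside 40.5% of all genes in that range. Other lncRNAs of at least 0.5 CPM passed in 45.0% of cases, 298 higher and 206 lower of 1121. The median log2 fold change was -0.02 over the members, -0.00 over all genes tested and 0.11 over the other lncRNAs. With library totals alone as the scaling, the median of all genes moves by 0.10 on the log2 scale, and 96 members then passed as higher and 73 as lower. Neither direction can therefore be called the more frequent one. The threshold on the mean was met by 14 members with a mean under 0.5 CPM in LINC01638 siRNA and 18 with such a mean in control siRNA; among the 358 at or above it in both groups, 62 rose and 73 fell (a check chosen after seeing the data). The 3 values of each group did not overlap in 183 members, 84 with LINC01638 siRNA above and 99 below, which is 46.9% of members beside 61.5% of all genes.

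**Figure D1:**
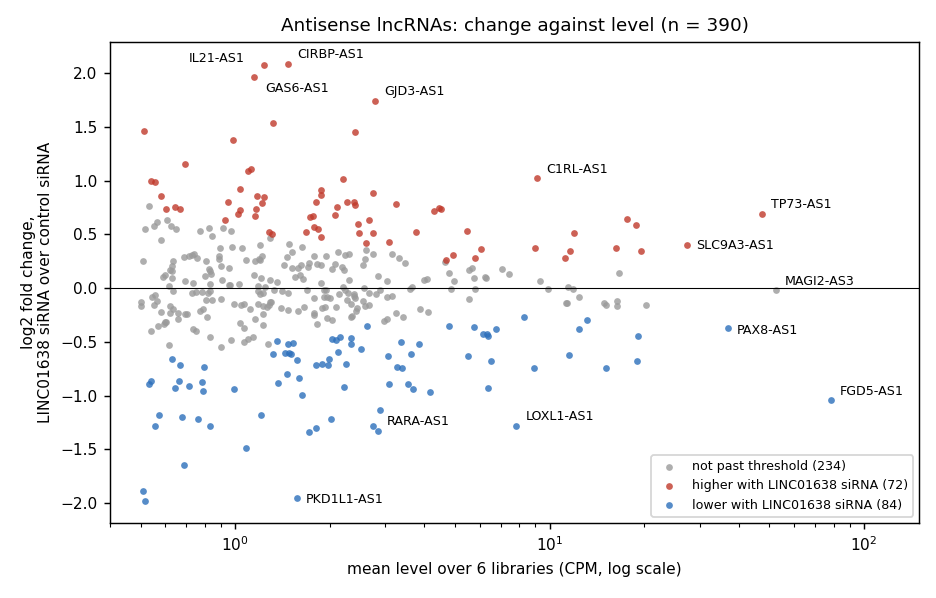
Log2 fold change (LINC01638 siRNA over control siRNA) of the 390 antisense lncRNAs against their mean level over 6 libraries in CPM on a log scale, each point 1 gene, coloured by whether it passed the test. Rises (72) and falls (84) occur at every level, and FGD5-AS1, the most abundant, is the only one of the 29 members at or above 10 CPM to change at least 2-fold.

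At least 2-fold changes were seen in 13 members that rose and 19 that fell, beside 993 and 789 of the 18569 genes tested. The largest rise among members with a mean of at least 1 CPM was that of CIRBP-AS1, which lies inside the gene of the cold-inducible RNA-binding protein CIRBP on the other strand. It had 2.27, 2.04 and 2.69 CPM with LINC01638 siRNA, against 0.319, 0.687 and 0.660 CPM with control siRNA (log2 fold change 2.09, SE 0.24, adjusted p = 2.62e-07). IL21-AS1, opposite the start of the T-cell cytokine gene IL21, had 1.74, 1.96 and 2.18 CPM with LINC01638 siRNA, against 0.263, 0.389 and 0.735 CPM with control siRNA (2.07, SE 0.27, adjusted p = 1.76e-06). IL21 itself had no count in any library. GAS6-AS1, across the end of the gene of GAS6, a ligand of the AXL family of receptors, had 1.36, 2.06 and 1.98 CPM with LINC01638 siRNA, against 0.544, 0.458 and 0.377 CPM with control siRNA (1.96, SE 0.24, adjusted p = 7.46e-07). In these 3 members each LINC01638 siRNA library lay above each control library, which follows largely from their choice as the largest called rises.

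GJD3-AS1, which spans the gap junction gene GJD3, rose to 4.22 ± 0.155 CPM with LINC01638 siRNA, against 1.27 ± 0.189 CPM with control siRNA (SD, n = 3 each), a log2 fold change of 1.74. GJD3 itself averaged 0.199 CPM with LINC01638 siRNA and 0.0690 CPM with control siRNA and was not tested. ZFPM2-AS1, named after the GATA cofactor ZFPM2, rose to 3.45 ± 0.0606 CPM with LINC01638 siRNA, against 1.27 ± 0.170 CPM with control siRNA (SD, n = 3 each). C1RL-AS1, at the start of a complement-like protease gene, was the most abundant of the 10 largest rises, with 12.5, 10.5 and 13.1 CPM with LINC01638 siRNA, against 6.23, 5.31 and 6.26 CPM with control siRNA. The 4 remaining were LURAP1L-AS1, POC1B-AS1, NAXD-AS1 and CFLAR-AS1, with log2 fold changes between 1.01 and 1.53. CFLAR encodes the caspase inhibitor c-FLIP, and NAXD an enzyme that repairs damaged NADH.

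The largest fall at a mean of at least 1 CPM was that of PKD1L1-AS1, inside the polycystin-family gene PKD1L1. It had 0.715, 0.635 and 0.632 CPM with LINC01638 siRNA, against 2.61, 2.13 and 2.90 CPM with control siRNA (log2 fold change -1.95, SE 0.19, adjusted p = 3.95e-08). PKD1L1 itself was at most 0.132 CPM and was not tested. RARA-AS1, inside the gene of the retinoic acid receptor RARA, had 1.50, 1.92 and 1.53 CPM with LINC01638 siRNA, against 4.11, 4.12 and 4.17 CPM with control siRNA (-1.33, SE 0.14, adjusted p = 9.92e-08). LOXL1-AS1, across the start of LOXL1, which cross-links elastin, had 4.56, 5.06 and 4.32 CPM with LINC01638 siRNA, against 11.7, 10.4 and 11.7 CPM with control siRNA (-1.28, SE 0.10, adjusted p = 9.29e-10). In each of these falls the groups did not overlap, which follows largely from their choice as the largest called falls. The other 7 were PPP1R14B-AS1, LYRM4-AS1, UGDH-AS1, TRIM52-AS1, TMC3-AS1, ATP2A1-AS1 and ZNF22-AS1, with log2 fold changes between -1.48 and -1.14. ATP2A1-AS1 lost its call when reads were counted without regard to strand (log2 fold change -0.34, adjusted p = 0.408). Such counts mix reads of both strands, so for overlapping opposite genes they cannot check either gene alone.

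**Figure D2:**
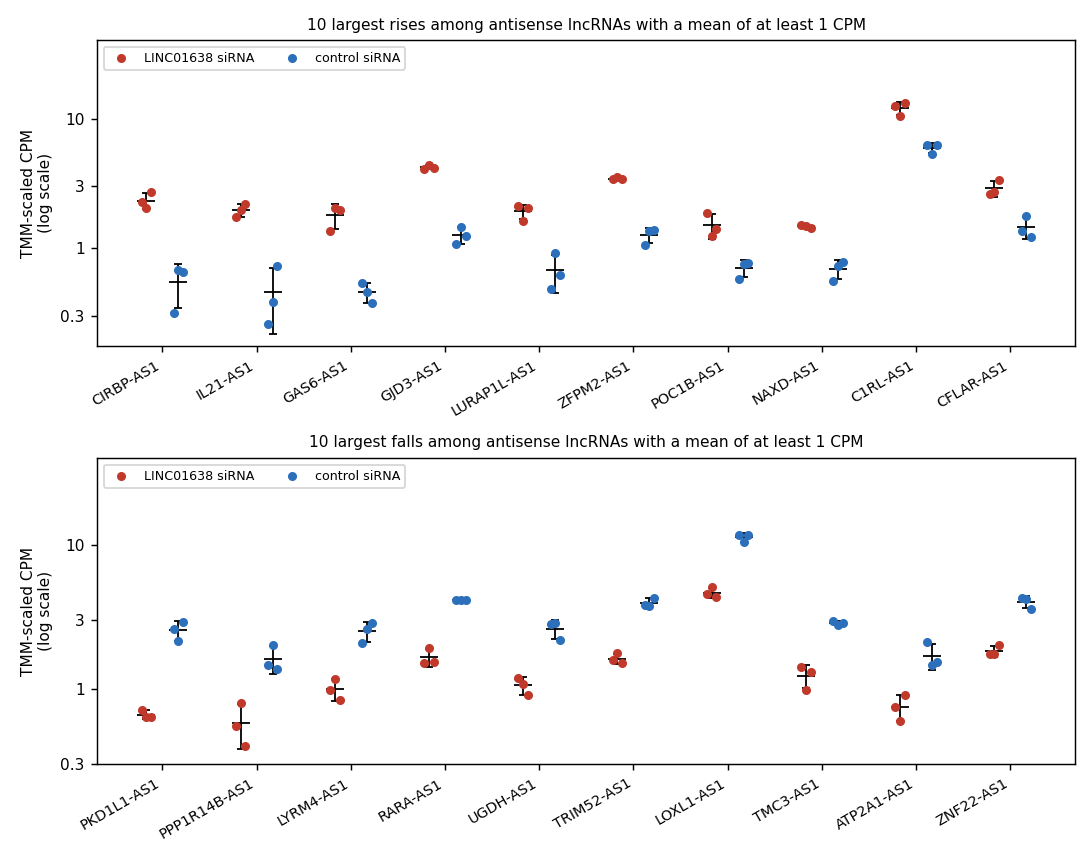
TMM-scaled CPM on a log scale in each library for the 10 largest rises (top) and the 10 largest falls (bottom) among antisense lncRNAs with a mean of at least 1 CPM, LINC01638 siRNA left and control siRNA right for each gene; dots are libraries A to C, and bars the mean ± SD. In all 20 genes the 3 dots of each group stand apart from those of the other. The genes were chosen as the largest called changes, so this separation follows largely from the choice. Over all genes tested, the groups did not overlap in 61.5%.

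Of the 5 most abundant antisense lncRNAs, 2 fell, 2 rose and 1 did not pass the test. FGD5-AS1, across the end of the endothelial exchange-factor gene FGD5, had 46.9, 59.0 and 50.0 CPM with LINC01638 siRNA, against 109, 106 and 106 CPM with control siRNA (log2 fold change -1.04, SE 0.07, adjusted p = 6.83e-10). FGD5 was at most 0.0366 CPM, so FGD5-AS1 is read here without its sense gene. TP73-AS1, across the end of the p53-family gene TP73, rose to 58.1 ± 2.27 CPM with LINC01638 siRNA, against 36.0 ± 2.16 CPM with control siRNA, and TP73 rose to 10.9 ± 1.22 CPM with LINC01638 siRNA, against 4.89 ± 0.424 CPM with control siRNA (SD, n = 3 each). PAX8-AS1 and PAX8, a transcription factor of Müllerian duct epithelium, both fell, by 0.37 and by 0.86 on the log2 scale. SLC9A3-AS1 rose by 0.40 on the log2 scale (adjusted p = 0.00103). MAGI2-AS3 averaged 52.2 ± 2.29 CPM with LINC01638 siRNA and 52.9 ± 2.45 CPM with control siRNA (adjusted p = 0.793), while MAGI2, the scaffold gene it overlaps at the start, rose with a log2 fold change of 0.53. Per kilobase of exon, MAGI2-AS3, TP73-AS1 and PAX8-AS1 stood above their sense genes in both groups.

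Of 32 antisense RNAs with a described role that were listed from general knowledge, 20 were members. Of these 6 rose, 7 fell and 7 did not pass the test (65.0% passed, beside 56.0% of all genes tested). Among all genes at or above 0.5 CPM the share was 62.7%, and at or above 2 CPM it was 68.0%, so the list does not stand out. Among antisense RNAs of genes tied to the mesenchymal state, ZEB1-AS1 fell with a log2 fold change of -0.49 (adjusted p = 0.00786) beside -0.48 for ZEB1, a repressor of epithelial genes. VIM-AS1 fell with a log2 fold change of -0.62 (adjusted p = 0.000323) beside -1.24 for VIM. At the median rate estimated further on, reads of VIM on the wrong strand could make up 60.4% of the VIM-AS1 counts with LINC01638 siRNA and 88.0% with control siRNA. With so large a possible share, the fall of VIM-AS1 cannot be told apart from that of VIM. Counting without regard to strand turned the VIM-AS1 value to 0.57 (adjusted p = 0.0695), so its direction did not hold there. That count takes in reads of both strands, so it cannot check VIM-AS1 apart from VIM. HAND2-AS1, the partner of a transcription factor of endometrial stroma, fell to 11.4 ± 0.326 CPM with LINC01638 siRNA, against 19.1 ± 1.26 CPM with control siRNA, and HAND2 fell to 40.5 ± 3.19 CPM with LINC01638 siRNA, against 79.9 ± 1.08 CPM with control siRNA (SD, n = 3 each). GATA6-AS1 fell with a log2 fold change of -0.27 (adjusted p = 0.0146), which did not hold without control replicate C (adjusted p = 0.0878), without LINC01638 siRNA replicate C (adjusted p = 0.0572) or with library totals alone (adjusted p = 0.115). MCM3AP-AS1 fell with a log2 fold change of -0.89 (adjusted p = 4.67e-06).

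CDKN2B-AS1, also called ANRIL and known to silence the CDKN2A and CDKN2B locus, averaged 6.45 ± 0.550 CPM with LINC01638 siRNA and 6.01 ± 0.971 CPM with control siRNA (SD, n = 3 each; adjusted p = 0.488). The gene of the cell cycle inhibitor CDKN2B fell to 19.2 ± 0.469 CPM with LINC01638 siRNA, against 31.5 ± 0.614 CPM with control siRNA. The antisense change minus the sense change was 0.82 on the log2 scale (95% interval 0.50 to 1.14). Of the members named after HOX clusters, 3 of 5 rose and none fell, a share of 60.0% called that lies near the 56.0% of all genes tested. HOXB-AS1 had a log2 fold change of 1.15 (adjusted p = 0.00149), HOXA-AS3 of 0.31 (adjusted p = 0.0169) and HOXB-AS3 of 0.47 (adjusted p = 0.0204). The call of HOXA-AS3 was lost without control replicate B (adjusted p = 0.0799), and that of HOXB-AS3 without control replicate C (adjusted p = 0.0878) or LINC01638 siRNA replicate C (adjusted p = 0.118). HOXA-AS2 (log2 fold change -0.15) passed as lower without regard to strand (adjusted p = 0.00241), and HOXB-AS1 lost its call in the same setting (adjusted p = 0.0732). THAP9-AS1, HIF1A-AS3 and TMPO-AS1 rose with log2 fold changes of 0.58, 0.78 and 0.28. GATA2-AS1, SBF2-AS1, MAPKAPK5-AS1, NNT-AS1, TTN-AS1 and HOXA-AS2 did not pass the test, with log2 fold changes between -0.27 and -0.01; SBF2-AS1 passed without LINC01638 siRNA replicate B (adjusted p = 0.0457).

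Of the 376 sense genes, 341 passed the filter on low counts, and of these 104 rose, 128 fell and 109 did not pass the test, with a median log2 fold change of -0.02. The share that passed was 68.0%, beside 64.9% of protein-coding genes and 56.0% of all genes tested. Both genes were tested in 345 pairs. Both passed the test in 102 pairs, in which both rose in 25, both fell in 42, and the antisense and sense genes moved in opposite directions in 35. The antisense RNA alone passed in 31 pairs, the sense gene alone in 132, and neither in 80. The log2 fold changes had the same sign in 198 pairs (57.4%). Across the 345 pairs, which share the 6 libraries and in part their reads, Pearson's r was 0.21 and Spearman's rho 0.24.

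The 2 changes correlated more closely in pairs with near starts, which is given as a description. Among the 191 pairs with starts up to 5 kb apart, Pearson's r was 0.44 and Spearman's rho 0.37, and 46 pairs passed in the same direction and 15 in opposite directions. Among the 150 pairs with starts farther apart, r was -0.03 and rho 0.06, and 20 pairs passed in the same direction and 20 in opposite directions. By position, rho was 0.38 in the 184 pairs where the antisense RNA overlaps the start of the sense gene, 0.22 in the 22 pairs that start apart from it within 5 kb on the other strand, 0.05 in the 69 pairs where it overlaps the end, and 0.06 in the 47 pairs where it lies inside. The share of pairs with the same sign varied little with distance, at 59.3% of the 135 pairs with starts up to 1 kb apart and 57.1% of the 49 pairs with starts over 50 kb apart. The difference between these correlations was not tested. Nor was the part in them of sense-gene reads on the wrong strand, which are estimated further on.

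**Figure D3:**
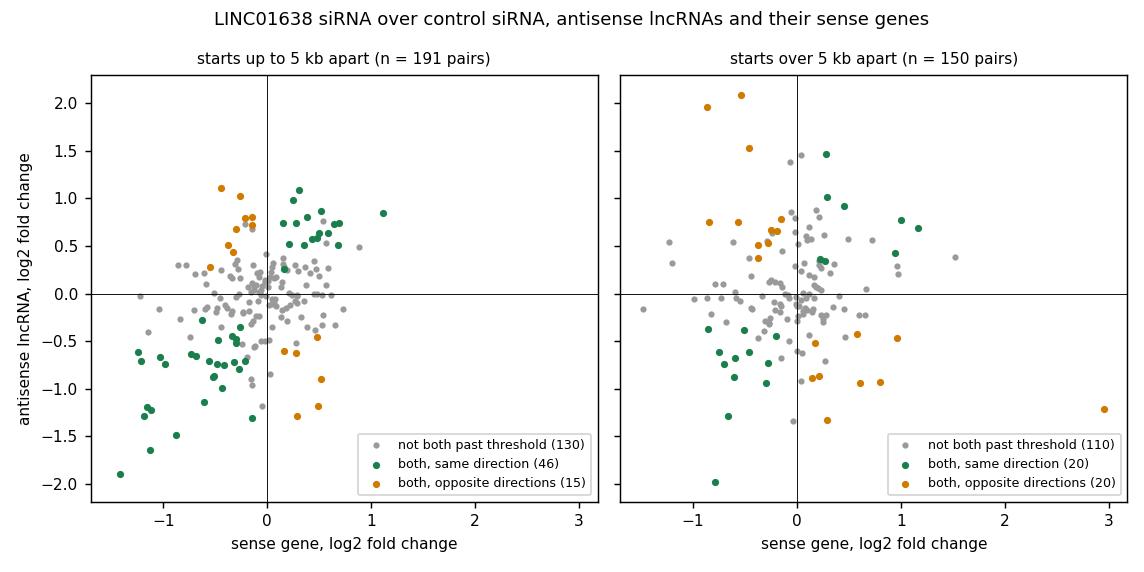
Log2 fold change of the antisense lncRNA (vertical axis) against that of its sense gene (horizontal axis), LINC01638 siRNA over control siRNA, for 191 pairs with annotated starts up to 5 kb apart (left) and 150 pairs farther apart (right). Pairs that both passed the test number 46 in the same direction and 15 in opposite directions on the left, and 20 and 20 on the right.

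Pairs that fell together, each with the antisense RNA across the start of the sense gene, included LOXL1-AS1 with LOXL1 (-1.28 and -1.18 on the log2 scale), PPP1R14B-AS1 with PPP1R14B, an inhibitor of protein phosphatase 1 (-1.48 and -0.88), and ZNF22-AS1 with the zinc-finger gene ZNF22 (-1.14 and -0.61). LOXL1-AS1 and LOXL1 differed in their change by -0.09 (95% interval -0.37 to 0.19, limma adjusted p = 0.597). Pairs that rose together included THAP9-AS1 with THAP9 (0.58 and 0.48), NAXD-AS1 with NAXD (1.09 and 0.30) and ZNF674-AS1 with ZNF674 (0.51 and 0.68); the last pair was chosen after its values were seen. UGDH-AS1 fell by 1.30 on the log2 scale, while UGDH, which makes UDP-glucuronic acid, had a log2 fold change of -0.15 (adjusted p = 0.0276). That call of UGDH was lost in 8 of the alternatives, among them with library totals alone (log2 fold change -0.05, adjusted p = 0.480) and without LINC01638 siRNA replicate A (adjusted p = 0.153) or C (adjusted p = 0.0842) or control replicate A (adjusted p = 0.0649) or C (adjusted p = 0.118).

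In some pairs the starts lie so close that the promoter windows of both genes overlap, so that both windows hold the same stretch of DNA. RefSeq windows on GRCh38.p14, from 250 bases before to 50 bases after each start, matched 305 members and 309 sense genes, and 53 of the 262 pairs with both windows had overlapping windows on opposite strands. Of these 53 pairs, 3 rose together, 8 fell together, 6 moved in opposite directions, and in 22 the sense gene alone passed the test. The antisense RNA alone passed in 2, and neither gene in 12. Both genes thus passed in 17 of the 53, beside 102 of all 345 pairs tested. The signs were the same in 28 of the 53, beside 198 of the 345. Falling together and moving in opposite directions are shown here by 1 pair each, chosen as large changes among such pairs. The capitals mark the bases that the window shares with that of its partner on the other strand.
ZNF22-AS1 window, chr10:45000754-45001053, minus strand: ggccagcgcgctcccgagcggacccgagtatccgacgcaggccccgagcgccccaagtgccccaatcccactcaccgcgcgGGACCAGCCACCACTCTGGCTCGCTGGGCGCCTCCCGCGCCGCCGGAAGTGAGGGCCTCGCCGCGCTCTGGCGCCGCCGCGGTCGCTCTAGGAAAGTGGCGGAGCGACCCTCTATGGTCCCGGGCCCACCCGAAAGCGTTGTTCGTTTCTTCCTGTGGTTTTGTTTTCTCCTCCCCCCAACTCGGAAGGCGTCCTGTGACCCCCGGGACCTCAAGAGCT
ZNF22 window, chr10:45000673-45000972, plus strand: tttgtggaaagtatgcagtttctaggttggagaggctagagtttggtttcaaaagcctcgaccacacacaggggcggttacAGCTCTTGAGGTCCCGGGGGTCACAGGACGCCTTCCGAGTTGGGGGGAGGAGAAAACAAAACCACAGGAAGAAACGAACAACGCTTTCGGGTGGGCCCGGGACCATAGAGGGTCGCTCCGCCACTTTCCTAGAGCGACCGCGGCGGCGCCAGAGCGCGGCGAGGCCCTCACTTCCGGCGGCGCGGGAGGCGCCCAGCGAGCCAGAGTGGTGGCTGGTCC
TRIM52-AS1 window, chr5:181260962-181261261, plus strand: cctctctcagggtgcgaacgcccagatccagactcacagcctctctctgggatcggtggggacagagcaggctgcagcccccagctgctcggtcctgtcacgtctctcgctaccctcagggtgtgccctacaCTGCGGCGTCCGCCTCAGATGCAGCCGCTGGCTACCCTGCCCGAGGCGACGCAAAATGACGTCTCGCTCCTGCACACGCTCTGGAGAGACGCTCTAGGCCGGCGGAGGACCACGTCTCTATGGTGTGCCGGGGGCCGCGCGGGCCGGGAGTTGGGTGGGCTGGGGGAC
TRIM52 window, chr5:181261094-181261393, minus strand: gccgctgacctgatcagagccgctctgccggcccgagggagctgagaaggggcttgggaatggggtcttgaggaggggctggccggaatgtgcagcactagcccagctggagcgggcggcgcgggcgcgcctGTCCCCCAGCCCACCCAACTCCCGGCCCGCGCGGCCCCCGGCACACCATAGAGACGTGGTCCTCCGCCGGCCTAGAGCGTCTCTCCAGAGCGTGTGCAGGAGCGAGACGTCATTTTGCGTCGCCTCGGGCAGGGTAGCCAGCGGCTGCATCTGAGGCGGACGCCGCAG
The ZNF22 windows share 219 bases, and the TRIM52 windows 168 bases.

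ZNF22-AS1 had 1.74, 1.73 and 2.00 CPM with LINC01638 siRNA, against 4.30, 4.19 and 3.58 CPM with control siRNA. ZNF22 had 27.5, 30.4 and 29.5 CPM with LINC01638 siRNA, against 46.8, 41.8 and 44.5 CPM with control siRNA. Both genes thus fell, and the groups did not overlap in either. The antisense RNA fell more, by a difference of -0.52 (95% interval -0.86 to -0.18, limma adjusted p = 0.0179). TRIM52-AS1, on the other side of the start of the tripartite-motif gene TRIM52, had 1.58, 1.77 and 1.51 CPM with LINC01638 siRNA, against 3.79, 3.73 and 4.30 CPM with control siRNA. TRIM52 averaged 8.61 ± 0.344 CPM with LINC01638 siRNA and 7.05 ± 0.217 CPM with control siRNA (SD, n = 3 each), with no overlap of the groups, so it rose (log2 fold change 0.29, adjusted p = 0.00820) where TRIM52-AS1 fell (-1.29). TRIM52 lost its call when reads were counted without regard to strand (adjusted p = 0.0633), a setting that mixes reads of both strands.

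In base composition the antisense windows were like those of the sense genes and richer in CpG than RefSeq windows at large. Median GC content was 64.7% in the antisense windows, 65.0% in the sense windows and 58.3% in all 27305 windows, and the median number of CpG was 24, 25 and 14. The letters GGGCGG, found in GC boxes, stood on either strand in 61.3% of antisense windows, 63.4% of sense windows and 44.6% of all windows. TATAAA stood in 6.23%, 8.41% and 12.0% of the same windows, and CCAAT in 29.8%, 30.7% and 35.7%. Of the 4 windows printed, ZNF22 and TRIM52 hold GGGCGG, ZNF22-AS1 holds CCAAT, and none holds TATAAA.

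The difference between the antisense change and the sense change was tested within each library, as the log2 ratio of both levels, with limma over 3556 pairs, those paired by name and the other overlapping gene pairs on opposite strands. Of the 345 pairs described here, FAM131B-AS2 lies on the same strand as FAM131B, and 3 pairs were not placed. It passed in 127 of the 345 pairs (36.8%), with the antisense RNA changing upward relative to its sense gene in 67 and downward in 60, beside 45.4% of all pairs tested. Of the 67 pairs called in the same direction, 22 passed this test. It passed in 18 of the 31 pairs where the antisense RNA alone had passed and in 50 of the 132 where the sense gene alone had.

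The largest opposite pairs with a rising antisense RNA were those of GAS6, CIRBP and LURAP1L. GAS6 had 80.9, 92.3 and 81.2 CPM with LINC01638 siRNA, against 148, 166 and 150 CPM with control siRNA, so it fell in the libraries where GAS6-AS1 was highest. The GAS6 difference was 2.74 (95% interval 2.32 to 3.16, limma adjusted p = 1.89e-06). CIRBP fell to 73.4 ± 4.12 CPM with LINC01638 siRNA, against 107 ± 3.60 CPM with control siRNA (SD, n = 3 each), a difference between antisense and sense change of 2.60 (95% interval 2.00 to 3.20). LURAP1L-AS1 rose to 1.92 ± 0.253 CPM with LINC01638 siRNA, against 0.675 ± 0.219 CPM with control siRNA, while LURAP1L fell to 8.47 ± 0.219 CPM with LINC01638 siRNA, against 11.7 ± 0.886 CPM with control siRNA (SD, n = 3 each). PCBP1-AS1, chosen after its values were seen as an abundant example, rose with a log2 fold change of 0.51 beside -0.37 for the RNA-binding protein gene PCBP1.

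The largest opposite pairs with a falling antisense RNA were those of TMC3 and CLN8. CLN8, whose product moves lysosomal enzymes out of the endoplasmic reticulum, had 23.0, 21.0 and 21.2 CPM with LINC01638 siRNA, against 12.2, 12.0 and 13.4 CPM with control siRNA. CLN8-AS1 had 4.18, 4.79 and 4.34 CPM with LINC01638 siRNA, against 8.84, 8.15 and 8.35 CPM with control siRNA, so neither gene's groups overlapped and the difference was -1.72 (95% interval -2.06 to -1.38, limma adjusted p = 8.20e-06). TMC3-AS1 fell to 1.23 ± 0.222 CPM with LINC01638 siRNA, against 2.87 ± 0.0878 CPM with control siRNA (SD, n = 3 each). TMC3, a gene of the transmembrane channel-like family, had only 18, 12 and 25 counts with LINC01638 siRNA, against 3, 3 and 0 counts with control siRNA, so its log2 fold change of 2.96 is uncertain in size. Counted without regard to strand it was -0.17 (adjusted p = 0.666), so neither its direction nor its call held there. That count takes in reads of both strands, so it cannot check TMC3 apart from TMC3-AS1. RARA rose to 46.5 ± 2.28 CPM with LINC01638 siRNA, against 38.1 ± 0.914 CPM with control siRNA (SD, n = 3 each), where RARA-AS1 fell. WAC-AS1, also chosen after its values were seen, had a log2 fold change of -0.62 beside 0.28 for WAC, although their annotated starts lie 250 bp apart. The calls of MCM3AP (adjusted p = 0.0219) and HIF1A (adjusted p = 0.0154), opposite to those of MCM3AP-AS1 and HIF1A-AS3, each failed in several alternatives. HIF1A had a log2 fold change of -0.05 with library totals alone (adjusted p = 0.392) and of -0.11 with TMM from protein-coding genes (adjusted p = 0.0649), and its call also failed without LINC01638 siRNA replicate A (adjusted p = 0.107) or C (adjusted p = 0.0640). The call of MCM3AP failed without regard to strand (adjusted p = 0.155), with no filter (adjusted p = 0.0662), without LINC01638 siRNA replicate A (adjusted p = 0.0809) or C (adjusted p = 0.100), and without control replicate A (adjusted p = 0.0598) or C (adjusted p = 0.0631).

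**Figure D4:**
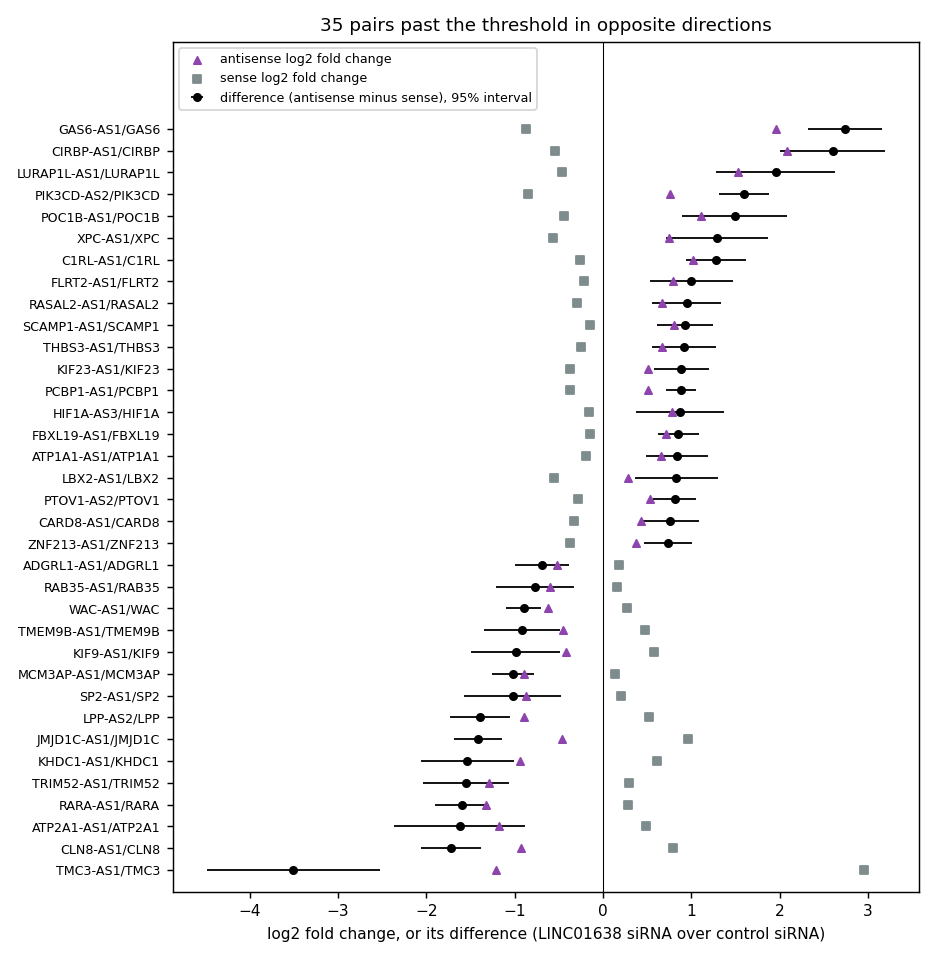
The 35 pairs in which the antisense lncRNA and its sense gene passed the test in opposite directions: log2 fold change (LINC01638 siRNA over control siRNA) of the antisense RNA (triangles) and the sense gene (squares), and their difference with its 95% interval (circles and bars). The differences run from -3.51 for TMC3 to 2.74 for GAS6, and the smallest in size is 0.69; the pairs were chosen by the calls of both genes, so a difference from 0 is fixed by that choice.

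Some antisense RNAs changed with no call for the sense gene. LYRM4-AS1 fell by 1.34 on the log2 scale while LYRM4, a gene of iron-sulphur cluster assembly, averaged 31.1 ± 1.37 CPM with LINC01638 siRNA and 31.9 ± 2.41 CPM with control siRNA (SD, n = 3 each; adjusted p = 0.638). The genes lie apart on opposite strands. ZFPM2-AS1 rose by 1.45 on the log2 scale while ZFPM2 averaged 50.7 ± 1.84 CPM with LINC01638 siRNA and 49.4 ± 0.869 CPM with control siRNA (SD, n = 3 each). The difference of these changes was 1.39 (95% interval 1.06 to 1.73, limma adjusted p = 3.57e-05). ZFPM2 passed the test with library totals alone (log2 fold change 0.14, adjusted p = 0.027). In 5 cases 2 members share 1 sense gene, and within them TMEM44-AS2 and TFAP2A-AS2 fell and PTOV1-AS2 rose, while TMEM44-AS1, TFAP2A-AS1 and PTOV1-AS1 did not pass the test. Of their sense genes, TMEM44 and TFAP2A did not pass either. PTOV1 did pass, as lower (log2 fold change -0.28, adjusted p = 6.34e-05), opposite to PTOV1-AS2.

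Reads that keep the wrong strand matter for a rare RNA opposite an abundant gene. In 147 abundant genes with no annotated gene nearby on the other strand, the wrong strand held a median of 0.177% ± 0.0286 of the counts with LINC01638 siRNA and 0.167% ± 0.00679 with control siRNA (SD, n = 3 each). If every count of the opposite gene leaked at this rate into the antisense RNA, the leak would reach over 25% of the antisense counts in at least 1 group for 62 members, 22 of them called, and over 100% for 11. It would stay under 5% in both groups for 194 members. The rate is a median over genes, so these values are not upper limits. MYRF-AS1, TM4SF1-AS1 and GNG12-AS1, which had log2 fold changes of -1.98, -1.89 and -1.20 at means under 1 CPM and were chosen after their values were seen, lie above 100% in both groups. For GAS6-AS1 and CIRBP-AS1 the value is 8.35% and 5.51% with LINC01638 siRNA, against 55.9% and 32.6% with control siRNA, and both rose while the opposite gene fell. Among the members with at most 25% in both groups, 62 rose and 72 fell, with 32 opposite pairs (a check chosen after seeing the data). A further limit is overlap on the same strand. In the annotation, 19 members overlap a protein-coding gene on their own strand, GAS6-AS1, THAP9-AS1 and PCBP1-AS1 among them, and their counts may hold reads of that gene; 8 of the 19 rose and 3 fell (57.9% called, beside 56.0% of all genes tested). The leak estimate covers exon counts only, and reads from introns of the sense gene were not part of it.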

How the data were processed

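Total RNA of 12Z cells was sequenced in 6 strand-specific libraries, 3 per siRNA. The counts deposited by the authors are whole-number gene counts without normalization, 1 table per library. STAR 2.7.10b, R 4.2.1 and GRCh38 (hg38) are named, per the submitters' processing notes. Neither the annotation release nor the trimming and mapping parameters are stated in the sources used here. Reverse-strand counts were analysed because that column held most gene counts. The 4 rows without a gene were left out of library totals and of every test. These rows held unmapped reads (13.0% ± 0.0422 with LINC01638 siRNA and 12.3% ± 0.351 with control siRNA), reads outside annotated exons (given with the results), reads assignable to more than 1 gene (7.17% ± 0.163 of mapped reads with LINC01638 siRNA and 7.49% ± 0.243 with control siRNA) and reads mapping to several places (0).

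Identifiers with their version gave a symbol for 61918 genes, and the bare identifier gave one for 754 more. Positions are those of GENCODE 29, and the counting may have used another release. The sense gene is the symbol before the suffix. edgeR 4.0.16 (filterByExpr, minimum count 10 and minimum total count 15, TMM, robust quasi-likelihood F test, group as the only term) tested 18569 genes, all 390 members among them, with Benjamini-Hochberg adjustment and a threshold of 0.05. A positive log2 fold change means higher with LINC01638 siRNA, and SE is the absolute log2 fold change over the square root of F. The difference within a pair is limma 3.58.1 (trend) on log2 ratios with a prior count of 2, adjusted over 3556 pairs, which are the genes named as antisense with their sense gene and all other overlapping pairs on opposite strands. Both were also run on simulated counts with known changes, built from the means and dispersions of these data. Only a small part of the genes was changed in them. They therefore cannot check the scaling or the calls where most genes pass the test, as here. DESeq2 1.42.0, R 4.3.3, Python 3.11.15, pandas 2.3.3 and matplotlib 3.10.9 were also used. The common biological coefficient of variation was 5.62%, and counting error is largest for members near the threshold.

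The members and lists were chosen with earlier results of these data known. The members named are the 10 largest called rises and falls at or above 1 CPM on average, the 5 of highest level, the 5 opposite pairs with the largest difference and the members of the list with described roles. Others are marked as chosen after their values were seen, except those that complete a count or stand next to the threshold. Replicate libraries differed by more than sampling noise, so each was counted once. Alternatives were other scalings, tests, filters and member rules, counts without strand, the replicate block and leaving out each library.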

Additional observations from a re-analysis of the deposited data

How the results depend on the processing

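The counts of members, sense genes and pairs stayed within 1.5 times under other scalings, tests and filters, with the exceptions given here. With library totals alone, the median log2 fold change of the members was 0.0815 and 42 pairs rose together; with TMM from protein-coding genes the median was 0.0217, and with a filter of 1 CPM in 3 libraries 0.0187. The 295 members overlapping no other gene on their own strand are a smaller set than all members. Of these 295, 47 rose, beside 26.3% of all genes tested that rose, and 23 pairs moved in opposite directions. Counts without strand left 38 pairs with a lower antisense minus sense difference. These counts mix reads of both strands, so for overlapping opposite genes they cannot check either gene alone. Leaving out 1 library at a time gave 61 to 71 members that rose, 74 to 83 that fell and 28 to 36 opposite pairs.

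The replicate letters did not pair the libraries, since the deviations of same-letter libraries correlated at -0.0753, -0.0203 and -0.0177 for A, B and C. With the replicate block, 71 members rose and 83 fell, and the difference was higher in 69 pairs and lower in 53; no named call changed.

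Over 91 named genes and these alternatives, 1289 values kept direction and side of the threshold, 28 lost and 5 gained a call, and 36 changed sign. The changed signs are as follows, in log2 fold change. With library totals alone they were 0.0633 for LYRM4, 0.0827 for MAGI2-AS3, 0.00792 for SBF2, 0.0966 for MAPKAPK5-AS1, 0.0952 for NNT-AS1 and 0.0915 for TTN-AS1. With TMM from protein-coding genes they were 0.00371 for LYRM4, 0.0231 for MAGI2-AS3, 0.0370 for MAPKAPK5-AS1, 0.0354 for NNT-AS1 and 0.0313 for TTN-AS1. With counts without strand they were -0.171 for TMC3, 0.570 for VIM-AS1, 0.0220 for NNT-AS1 and 0.0197 for GNG12-AS1. With 1 CPM in 3 libraries they were 0.0184 for MAGI2-AS3, 0.0324 for MAPKAPK5-AS1, 0.0309 for NNT-AS1 and 0.0266 for TTN-AS1. With DESeq2 size factors they were 0.00787 for MAPKAPK5-AS1, 0.00693 for NNT-AS1 and 0.00241 for TTN-AS1. With the DESeq2 Wald test they were 0.00818 for MAPKAPK5-AS1, 0.00693 for NNT-AS1 and 0.00183 for TTN-AS1. Without single libraries LYRM4 ran over -0.0840 to 0.0313, MAGI2-AS3 over -0.0584 to 0.0141, MAPKAPK5-AS1 over -0.0856 to 0.0969, NNT-AS1 over -0.0381 to 0.0212 and TTN-AS1 over -0.0963 to 0.0541. Of these genes, TMC3, VIM-AS1 and GNG12-AS1 had passed the test. The cause of these changes of sign was not tested for any of the alternatives.

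Members near 0.5 CPM rest on few counts per library, so small changes were not detectable there.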

Other observations

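By position, 9 of the 56 antisense lncRNAs inside their sense gene rose and 20 fell, 15 of the 77 across its end rose and 10 fell, 28 of the 189 across its start rose and 39 fell, and 10 of the 31 that span it rose and 6 fell. These counts are a description, and the differences between them were not tested. The shares called were 51.8%, 32.5%, 35.4% and 51.6% in that order, beside 56.0% of all genes tested. Of the 31 named after genes of zinc-finger proteins, 8 rose and 6 fell, a share of 45.2% called.

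The lncRNAs with symbols ending in -DT, which are transcribed divergently from the promoter of the gene they are named after, numbered 184 at a mean of at least 0.5 CPM. Of these 30 rose and 37 fell, with a median log2 fold change of -0.03. That is 36.4% called, beside 45.0% of lncRNAs at this level without an antisense symbol and 56.0% of all genes tested.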
